A study of Homo sapiens with 20 samples.

Results

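The KLHL genes examined here were the 35 transcript clusters that carried exactly 1 gene symbol made of KLHL and a number, out of 17709 clusters with 1 symbol and 21448 in all. The muscle genes KLHL40 and KLHL41 were left out by the rule that chose the members, and every remaining member was measured by 1 cluster. RNA levels were measured on 20 Affymetrix Clariom S arrays of 3 human tumour lines, each as a prexasertib-sensitive parental line and as a resistant derivative. Prexasertib blocks CHK1, a kinase of the replication checkpoint. NCI-H520, a squamous lung carcinoma line, had 3 parental and 3 resistant arrays, and its resistant line arose by long-term escalation of the drug concentration. SJCRH30, an alveolar rhabdomyosarcoma line, had 3 parental and 3 resistant arrays. Both SJCRH30 lines were grown out of mouse xenografts, the sensitive one from a vehicle-treated tumour and the resistant one from a tumour that regrew after prexasertib, so that they differ in tumour of origin as well as in resistance. Rh41, a second alveolar rhabdomyosarcoma line, had 3 parental and 5 resistant arrays, with resistance again obtained by escalation. The paper describes separate Rh41 cultures, 5 given DMSO and 5 given prexasertib. The array labels do not state which of these cultures were used, so replicate spread in Rh41 may include spread between separate selections. By the study's methods the SJCRH30 tumour lines were kept in prexasertib when passaged. Whether the drug was present when RNA was taken from any of the lines is not stated in the sources used here, so effects of the drug and of resistance cannot be told apart. The arrays of NCI-H520 and of SJCRH30 came from a single resistant line each, so replicate spread there is spread between cultures only.

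KLHL proteins are substrate adaptors of the cullin 3 ubiquitin ligase. A BTB domain, helped by the adjoining BACK domain, binds the cullin CUL3, whose RING partner RBX1 brings in the ubiquitin-loaded E2 enzyme. A propeller of kelch repeats at the other end of the adaptor holds the substrate. Family members are known for acting on mitotic kinases, on WNK kinases of salt transport, on COPII vesicle coats and on structural proteins of muscle and skin. An array cluster reports RNA and not the activity of a ligase, and it does not tell isoforms of a gene apart.

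KLHL13 was the 1 member called in all 3 lines, and it was lower in the resistant cells each time. On the deposited scale its fall was 2.99-fold in the NCI-H520 cells, 2.95-fold in the SJCRH30 cells and 1.70-fold in the Rh41 cells. The scale of the Rh41 arrays was narrower, so the Rh41 fold cannot be set beside the others. KLHL5 fell in SJCRH30 and rose in NCI-H520, and KLHL42 was called in SJCRH30 alone, where it fell. KLHL2 and KLHL36 rose in NCI-H520, and KLHL20 rose in SJCRH30. A cluster was called when limma, run in each line and adjusted over all 17709 clusters, gave an adjusted p below 0.05 and the change exceeded 1.5-fold. By this rule 4 of 35 members rose in NCI-H520 (11.4%, against 10.1% of all clusters) and 3 fell (8.57%, against 9.90%). In SJCRH30 7 of 35 were called, against 18.7% of all clusters, with 4 rises (background 9.42%) and 3 falls (background 9.28%). In Rh41 1 of 35 was called (2.86%, against 8.78%), with no rise (background 5.69%) and 1 fall (background 3.08%). On the adjusted p alone, 3 of 35 passed in Rh41, against 20.5%. By the same measure 7 of 35 passed in NCI-H520, against 20.2%, and 7 of 35 in SJCRH30, against 19.0%. The 1.5-fold threshold thus removed a larger share of all clusters in Rh41 than in the other lines. In all, 12 members were called in at least 1 line (34.3%), against 37.2% of all clusters. These shares are near or below the background, so they are no result about the family, and what follows is an account of single genes.

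KLHL13 lies on the X chromosome, and RefSeq (build GRCh38.p14) lists 2 start sites for it. The 300-base windows around these starts, from 250 bases before to 50 bases after, are printed because KLHL13 carried the change shared by the lines. They differ in base composition. The window at chrX:118116761-118117060, minus strand, held 27 CG pairs and 74.0% G or C, while that at chrX:117985280-117985579, minus strand, held 1 CG pair and 37.7% G or C. Capitals mark the letters TATAAA, the core of the box bound by TATA-binding protein. They were in the second window alone, at bases 54 and 138 of it. The array does not tell which start was used.

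KLHL13 CG-rich start: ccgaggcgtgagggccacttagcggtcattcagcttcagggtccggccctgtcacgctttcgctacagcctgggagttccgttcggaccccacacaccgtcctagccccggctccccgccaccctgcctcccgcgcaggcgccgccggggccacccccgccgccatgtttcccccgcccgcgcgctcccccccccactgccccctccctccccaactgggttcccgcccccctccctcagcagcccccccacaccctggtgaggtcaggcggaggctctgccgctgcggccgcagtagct

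KLHL13 CG-poor start: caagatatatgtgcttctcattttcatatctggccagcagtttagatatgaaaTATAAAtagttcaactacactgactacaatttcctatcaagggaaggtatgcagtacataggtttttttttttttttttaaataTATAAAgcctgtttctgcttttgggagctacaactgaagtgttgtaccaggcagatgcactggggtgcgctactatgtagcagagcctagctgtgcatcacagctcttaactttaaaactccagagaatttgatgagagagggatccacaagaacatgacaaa

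The windows of KLHL5 (chr4:39061982-39062281, plus strand) and KLHL42 (chr12:27779983-27780282, plus strand) are shown beside them because these genes changed differently in NCI-H520 and SJCRH30. The KLHL5 window held 2 CG pairs and none of the letters searched. The KLHL42 window held 44 CG pairs and the E2F letters TTTGGCGC at base 124, given in capitals.

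KLHL5: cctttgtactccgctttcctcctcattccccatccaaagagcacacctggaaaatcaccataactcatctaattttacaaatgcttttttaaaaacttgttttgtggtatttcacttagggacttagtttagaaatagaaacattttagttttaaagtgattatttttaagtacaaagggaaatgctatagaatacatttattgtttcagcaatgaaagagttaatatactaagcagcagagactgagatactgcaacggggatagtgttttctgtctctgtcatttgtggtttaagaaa

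KLHL42: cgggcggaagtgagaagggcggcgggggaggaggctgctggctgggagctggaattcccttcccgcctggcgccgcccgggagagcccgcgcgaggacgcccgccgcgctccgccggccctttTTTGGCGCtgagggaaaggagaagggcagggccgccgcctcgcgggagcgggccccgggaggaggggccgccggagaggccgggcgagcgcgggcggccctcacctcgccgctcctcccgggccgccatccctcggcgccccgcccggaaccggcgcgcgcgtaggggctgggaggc

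In all, 42 windows of 31 members were listed; KLHL14, KLHL23, KLHL31 and KLHL38 had none. Both strands were searched. E2F letters (TTTCCCGC, TTTCGCGC, TTTGCCGC or TTTGGCGC) were in 2 of the 42 windows, those of KLHL36 and KLHL42 (4.76%), against 3.31% of 35116 windows of all genes. The letters CCAAT were in 26.2% of member windows and 34.6% of all, TATAAA in 14.3% and 11.5%, and the muscle E-box CAGCTG in 16.7% and 17.9%. The median number of CG pairs was 14 in both sets. A match of letters is not a binding site.

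KLHL13 and its close relative KLHL9 form with CUL3 a ligase that acts on Aurora B, the kinase of the chromosomal passenger complex, during mitosis. In NCI-H520 the log2 values of KLHL13 were 7.42, 7.38 and 6.99 on the parental arrays and 6.04, 5.88 and 5.13 on the resistant arrays. In SJCRH30 they were 11.44, 11.68 and 11.05 on the parental and 9.73, 9.86 and 9.91 on the resistant arrays. In Rh41 they were 8.55, 8.33 and 8.55 on the parental and 7.81, 7.82, 7.66, 7.58 and 7.69 on the resistant arrays. Every resistant array lay below every parental array of its line. KLHL13 fell by 1.58 ± 0.25 on the log2 scale in NCI-H520 (± SE, limma, adjusted p = 0.00093), fell by 1.56 ± 0.21 in SJCRH30 (adjusted p = 0.00022) and fell by 0.76 ± 0.10 in Rh41 (adjusted p = 0.00039). The Rh41 arrays were normalized apart from the other 12 (standard deviation over all clusters 1.99, against 2.99), so the smaller figure in Rh41 cannot be read as a smaller change. The difference between the changes of NCI-H520 and SJCRH30 was -0.02 ± 0.34, with a 95% confidence interval of -0.73 to 0.69, and was not called. Of all clusters, 18 (0.102%) were called lower in all 3 lines.

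**Figure D1:**
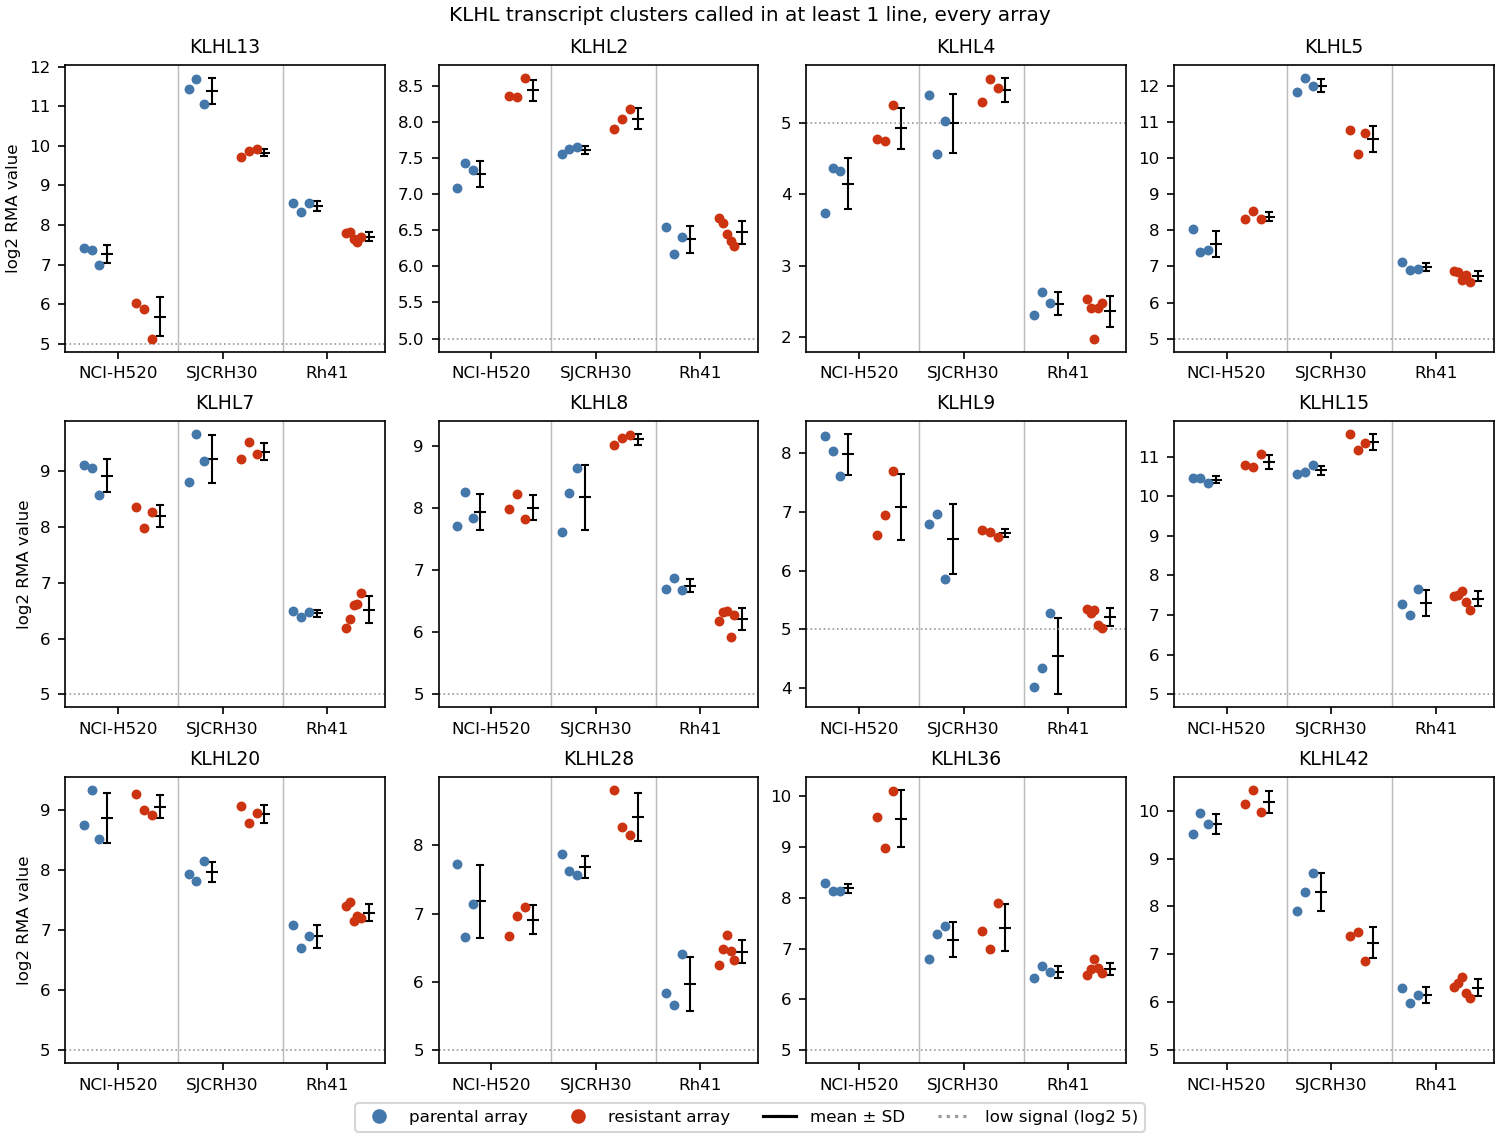
Log2 RMA values of the 12 KLHL clusters called in at least 1 line, 1 point per array (blue parental, red resistant), with the mean ± SD of each group in black and the low-signal level of 5 dotted. KLHL13 is lower on all resistant arrays than on all parental arrays in each line; Rh41 values are on a narrower scale and cannot be set beside those of the other lines.

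KLHL9, the close relative, was called in NCI-H520 alone. Its values in NCI-H520 were 8.29, 8.03 and 7.61 on the parental and 6.61, 6.94 and 7.70 on the resistant arrays, so that the groups overlapped at 1 resistant array. KLHL9 fell by 0.89 ± 0.28 and passed the threshold narrowly (adjusted p = 0.046). The call was lost on leaving out any one of parental replicates 1 and 2 and resistant replicates 1 and 2, with adjusted p up to 0.176 over all alternatives. In SJCRH30 KLHL9 was 6.79, 6.97 and 5.85 on the parental and 6.70, 6.66 and 6.57 on the resistant arrays, with no call. In Rh41 it was higher on average in the resistant cells by 0.66 ± 0.23 (adjusted p = 0.068), with values of 4.02, 4.34 and 5.28 on the parental arrays and 5.02 to 5.34 on the resistant arrays. Whether probes of either gene also bind RNA of the other was not tested.

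Aurora B itself (AURKB) rose by 1.29 ± 0.19 in NCI-H520 (adjusted p = 0.00061). Its change was 0.11 ± 0.18 in SJCRH30 and -0.16 ± 0.10 in Rh41, with no call. KLHL21, another adaptor that acts on Aurora B, KLHL22, which acts on the mitotic kinase PLK1, and KLHL18, which acts on Aurora A, were called in no line. KLHL18 came nearest, with values of 7.69, 7.62 and 8.11 on the parental and 8.71, 8.37 and 8.23 on the resistant arrays of NCI-H520, a change of 0.63 ± 0.21 (adjusted p = 0.059). The resistant arrays of KLHL18 all lay above the parental arrays there. RNA of a list of 25 G2/M and mitosis genes was measured on the same arrays, with 23 rises and no fall in NCI-H520, 2 rises and 10 falls in SJCRH30, and 1 rise and 2 falls in Rh41. The part of cell cycle distribution in the KLHL values was not tested.

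KLHL5 and KLHL42 separated NCI-H520 from SJCRH30. The KLHL5 values were 8.03, 7.39 and 7.45 on the parental and 8.32, 8.53 and 8.31 on the resistant arrays of NCI-H520. In SJCRH30 they were 11.844, 12.225 and 11.999 on the parental and 10.78, 10.12 and 10.69 on the resistant arrays. The groups did not overlap in either line, which is common among all clusters, and the order was opposite. KLHL5 rose by 0.76 ± 0.22 in NCI-H520 (adjusted p = 0.026) and fell by 1.49 ± 0.22 in SJCRH30 (adjusted p = 0.00046). The rise was lost on leaving out any one of parental replicates 2 and 3 and resistant replicates 1, 2 and 3, and the adjusted p reached 0.0979 over the alternatives, whereas the fall in SJCRH30 held under every alternative run. In Rh41 KLHL5 was lower on every resistant array, at 6.57 to 6.87 against 6.90 to 7.12, but the change of -0.25 ± 0.11 was not called (adjusted p = 0.13). KLHL5 was the 1 member called in opposite directions in a pair of lines, against 4.85% of all clusters.

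KLHL42 (formerly KLHDC5) is known for directing the katanin p60 subunit, which severs microtubules, to degradation. Its SJCRH30 values were 7.92, 8.30 and 8.70 on the parental and 7.39, 7.46 and 6.87 on the resistant arrays. All 3 resistant arrays were below all 3 parental arrays, and KLHL42 fell by 1.07 ± 0.24 (adjusted p = 0.0077). In NCI-H520 the resistant values of 10.14, 10.43 and 9.98 lay above the parental values of 9.52, 9.94 and 9.72, a change of 0.46 ± 0.20 that was not called (adjusted p = 0.15). In Rh41 the groups overlapped, at 5.98 to 6.31 and 6.09 to 6.53.

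The difference between the resistance changes of NCI-H520 and SJCRH30 was tested for every cluster in a fit of those 12 arrays. It was called for 4 of 35 members (11.4%), against 23.1% of all clusters. KLHL5 differed by 2.26 ± 0.31 (adjusted p = 4.2e-05) and KLHL42 by 1.52 ± 0.33 (adjusted p = 0.0021), and both held under all 20 alternatives. KLHL36 differed by 1.13 ± 0.39 (adjusted p = 0.045) and KLHL2 by 0.72 ± 0.25 (adjusted p = 0.045). These last calls were lost in 11 and 14 of the 20 alternatives. Left out singly, every array but NCI-H520 resistant replicate 2, SJCRH30 parental replicate 1 and SJCRH30 resistant replicate 3 ended the KLHL36 call, and every array but NCI-H520 parental replicate 2 and SJCRH30 resistant replicate 3 ended the KLHL2 call. Over the alternatives the adjusted p reached 0.123 for KLHL36 and 0.103 for KLHL2. All 4 differences were toward a higher change in NCI-H520 (11.4%, against 11.8% of all clusters), and 0 were toward a lower change (background 11.3%). Over all 35 members the difference was positive for 13 (50.2% of all clusters) and negative for 22, with a median of -0.25. No such test was made against Rh41, whose values are on another scale.

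**Figure D2:**
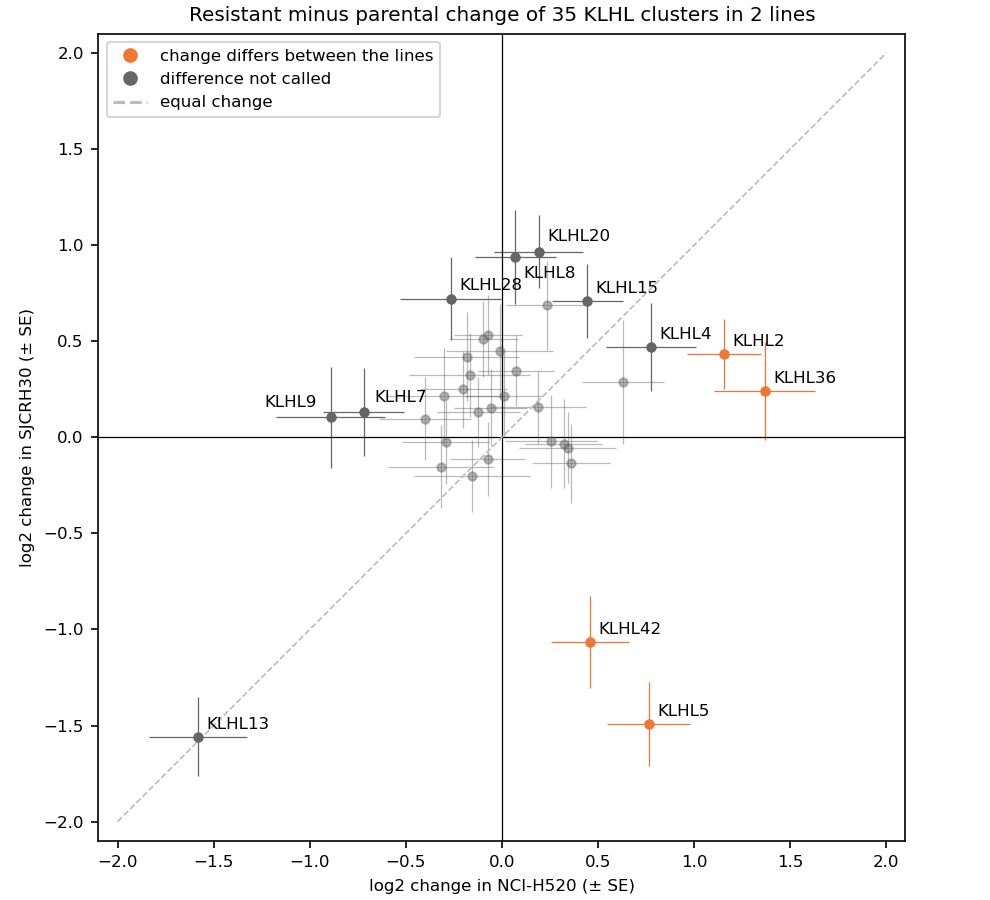
Log2 change, resistant minus parental, of the 35 KLHL clusters in NCI-H520 (x axis) and SJCRH30 (y axis), with bars of 1 SE; orange marks clusters whose changes differed between the lines and the dashed line marks equal change. KLHL13 sits on the line of equal change at -1.58 and -1.56, and KLHL5 and KLHL42 lie furthest below it.

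KLHL2 and KLHL36 rose in NCI-H520. KLHL2, which with its relative KLHL3 marks WNK kinases for degradation, had values of 7.08, 7.44 and 7.33 on the parental and 8.36, 8.35 and 8.61 on the resistant arrays. It rose by 1.16 ± 0.19 (adjusted p = 0.0011), or 2.23-fold, with a gap between the groups wider than the range within either. In SJCRH30 its parental values of 7.55 to 7.66 also lay below its resistant values of 7.90 to 8.19, but the change of 0.43 ± 0.18 was not called (adjusted p = 0.13), and in Rh41 the groups overlapped. KLHL3 was of low signal in all 6 groups. WNK1, a substrate of both, was not called in NCI-H520, at 0.21 ± 0.26 (adjusted p = 0.66), or in Rh41, at -0.12 ± 0.12 (adjusted p = 0.55). It fell by 0.999 ± 0.206 in SJCRH30 (adjusted p = 0.0044).

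KLHL36 was 8.28, 8.14 and 8.13 on the parental and 9.59, 8.97 and 10.10 on the resistant arrays of NCI-H520. The resistant arrays were spread over more than 1 log2 unit, yet all were above the parental arrays, and KLHL36 rose by 1.37 ± 0.26 (adjusted p = 0.0029). In SJCRH30 the groups overlapped at 6.79 to 7.43 and 6.99 to 7.89, as they did in Rh41 at 6.43 to 6.66 and 6.49 to 6.79. The calls of KLHL2, KLHL36 and KLHL13 in NCI-H520 held under every alternative run.

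The other calls in NCI-H520 were smaller and less stable. KLHL4, on the X chromosome, rose by 0.78 ± 0.23 (adjusted p = 0.036), from 3.73, 4.37 and 4.33 to 4.77, 4.74 and 5.25. Both group means were below a log2 value of 5, which was taken as low signal. KLHL7, mutated in a form of retinitis pigmentosa, fell by 0.72 ± 0.21 (adjusted p = 0.032), from 9.12, 9.05 and 8.58 to 8.35, 7.98 and 8.26. Its groups did not overlap. KLHL4 lost its call on leaving out any one array but parental replicate 2, and KLHL7 on leaving out any one of parental replicates 1 and 2 and resistant replicates 2 and 3. The adjusted p over the alternatives reached 0.133 for KLHL4 and 0.113 for KLHL7.

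In SJCRH30, 4 members rose. KLHL20, which directs the death-associated kinase DAPK1 and the nuclear body protein PML to degradation, had values of 7.93, 7.81 and 8.14 on the parental and 9.06, 8.77 and 8.95 on the resistant arrays. It rose by 0.97 ± 0.19 (adjusted p = 0.0033), and no single array decided the call. In Rh41 the resistant arrays, at 7.14 to 7.46, were likewise above the parental arrays, at 6.70 to 7.08, and the change of 0.40 ± 0.12 passed on the adjusted p (0.037) but was under 1.5-fold. In NCI-H520 the groups overlapped. DAPK1 and PML were not called in SJCRH30, with changes of -0.12 ± 0.18 and 0.00 ± 0.30; in Rh41 PML rose by 0.88 ± 0.12 (adjusted p = 0.0004).

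KLHL8 was 7.62, 8.25 and 8.65 on the parental and 9.02, 9.13 and 9.19 on the resistant arrays of SJCRH30, a rise of 0.94 ± 0.25 (adjusted p = 0.017). In Rh41 it stood the other way, at 6.70, 6.87 and 6.68 on the parental and 5.93 to 6.35 on the resistant arrays. That change of -0.53 ± 0.12 passed on the adjusted p (0.0083) and missed the 1.5-fold threshold. In NCI-H520 KLHL8 was 7.72 to 8.27 in the parental and 7.83 to 8.22 in the resistant arrays, with full overlap. The worm relative of KLHL8 is known for the turnover of rapsyn, a protein of the neuromuscular junction.

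KLHL15, an X-linked adaptor for a B subunit of the phosphatase PP2A and for the DNA end resection factor CtIP, rose by 0.71 ± 0.19 in SJCRH30 (adjusted p = 0.020), from 10.56, 10.61 and 10.79 to 11.57, 11.18 and 11.35. Its resistant values in NCI-H520, 10.78, 10.74 and 11.07, were also above the parental 10.47, 10.46 and 10.32, but the change of 0.45 ± 0.19 was not called (adjusted p = 0.13). KLHL28 rose by 0.72 ± 0.22 in SJCRH30 (adjusted p = 0.033), from 7.87, 7.63 and 7.56 to 8.81, 8.26 and 8.15. Single arrays decided these last rises: KLHL15 was lost without parental replicate 1, parental replicate 2 or resistant replicate 1, KLHL28 without parental replicate 2 or 3 or resistant replicate 1 or 2, and KLHL8 without parental replicate 1 or resistant replicate 3. Over the alternatives the adjusted p reached 0.0752 for KLHL15, 0.129 for KLHL28 and 0.0705 for KLHL8.

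**Figure D3:**
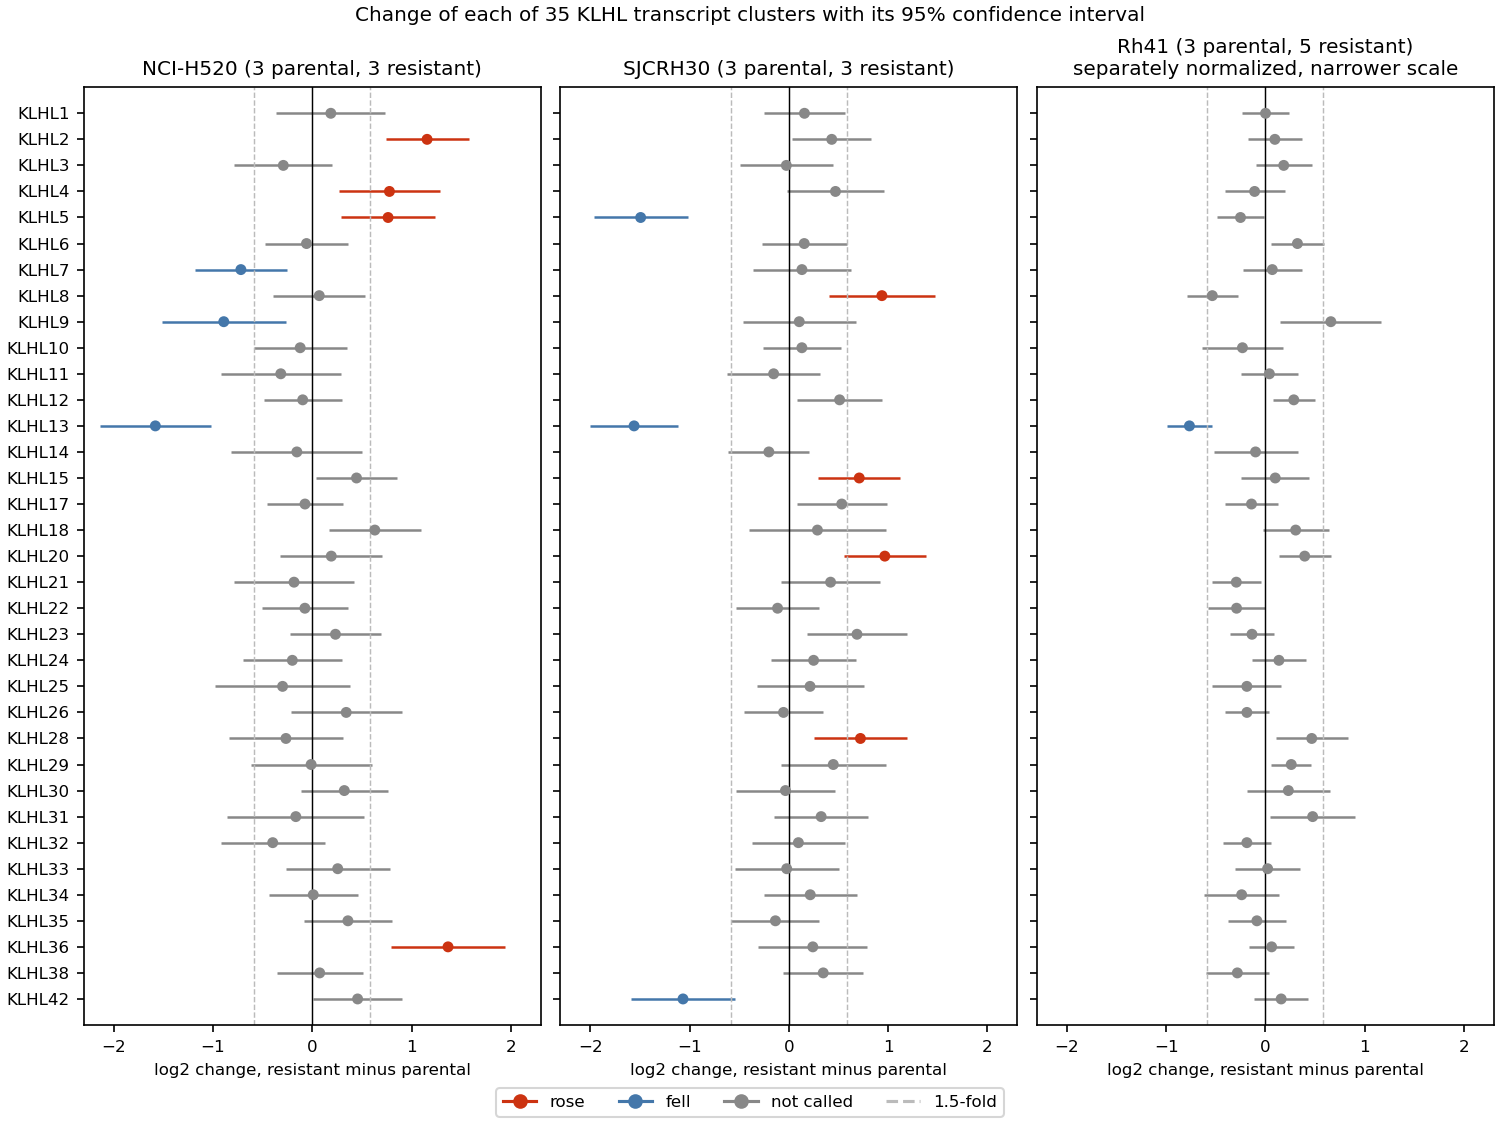
Log2 change, resistant minus parental, of each of the 35 KLHL clusters with its 95% confidence interval, in 1 panel per line (red rose, blue fell, grey not called; dashed lines at 1.5-fold). KLHL13 is blue in all 3 panels, and Rh41, on its narrower scale, holds no other call.

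The 23 members called in no line (65.7%, against 62.8% of all clusters) changed by -0.40 (KLHL32) to 0.63 (KLHL18) in NCI-H520, -0.20 (KLHL14) to 0.69 (KLHL23) in SJCRH30 and -0.29 (KLHL21) to 0.48 (KLHL31) in Rh41. KLHL1 moved least, by no more than 0.19 in any line, at low signal throughout. KLHL12, an adaptor for the COPII coat protein SEC31, had resistant values above all parental values in SJCRH30 (7.51 to 7.98 against 8.16 to 8.43) and in Rh41 (6.92 to 6.98 against 7.06 to 7.35). Its changes of 0.51 ± 0.20 and 0.29 ± 0.10 were not called (adjusted p = 0.096 and 0.058). KLHL23 shares its transcript with a read-through gene, PHOSPHO2-KLHL23, so its cluster may not measure KLHL23 alone.

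Over all 35 members the median log2 change was -0.01 in NCI-H520, 0.21 in SJCRH30 and, on its own scale, 0.02 in Rh41, beside 0.01, 0.01 and -0.03 for all clusters. The change was positive for 17 members in NCI-H520 (50.6% of all clusters), for 24 in SJCRH30 (50.7%) and for 19 in Rh41 (45.01%). The sign of the change was shared by 16 of 35 members between NCI-H520 and SJCRH30, 17 between NCI-H520 and Rh41 and 20 between SJCRH30 and Rh41, beside 50.2%, 49.9% and 49.4% of all clusters.

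More members were called between the parental lines than between parental and resistant cells, and the same held for all clusters. Between parental SJCRH30 and parental NCI-H520, 15 of 35 members were called (42.9%), against 44.3% of all clusters. Higher in SJCRH30 were 7, against 22.2% of all clusters, and lower were 8, against 22.1%. These contrasts share their parental arrays with the resistance comparisons. The largest differences were those of KLHL5, higher by 4.40 ± 0.22 (adjusted p = 1.3e-09), and KLHL13, higher by 4.13 ± 0.22 (adjusted p = 2.3e-09), with 21.1-fold and 17.5-fold on the deposited scale. On each SJCRH30 resistant array KLHL13 and KLHL5 stayed above every NCI-H520 array. KLHL29, KLHL21 and KLHL23 were higher by 2.37, 2.35 and 2.13, and KLHL4 and KLHL33, at or near low signal, by 0.84 and 0.63.

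KLHL24, which targets keratin 14 and is mutated in a form of epidermolysis bullosa, was lower in parental SJCRH30, with a difference of -3.15 ± 0.22 (adjusted p = 3.2e-08), at 7.23, 7.11 and 7.51 against 10.10, 10.73 and 10.47 in NCI-H520. It was called in none of the resistance comparisons. The log2 difference was -1.73 for KLHL11, -1.44 for KLHL9, -1.42 for KLHL42, -1.33 for KLHL12, -1.01 for KLHL36 and -0.90 for KLHL20. KLHL32 was called lower with both parental lines at low signal. The low-signal filter left out KLHL32 and KLHL4 before this comparison was fitted, so neither was tested in that setting. KLHL9 and KLHL13 thus stood in opposite order between these lines.

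**Figure D4:**
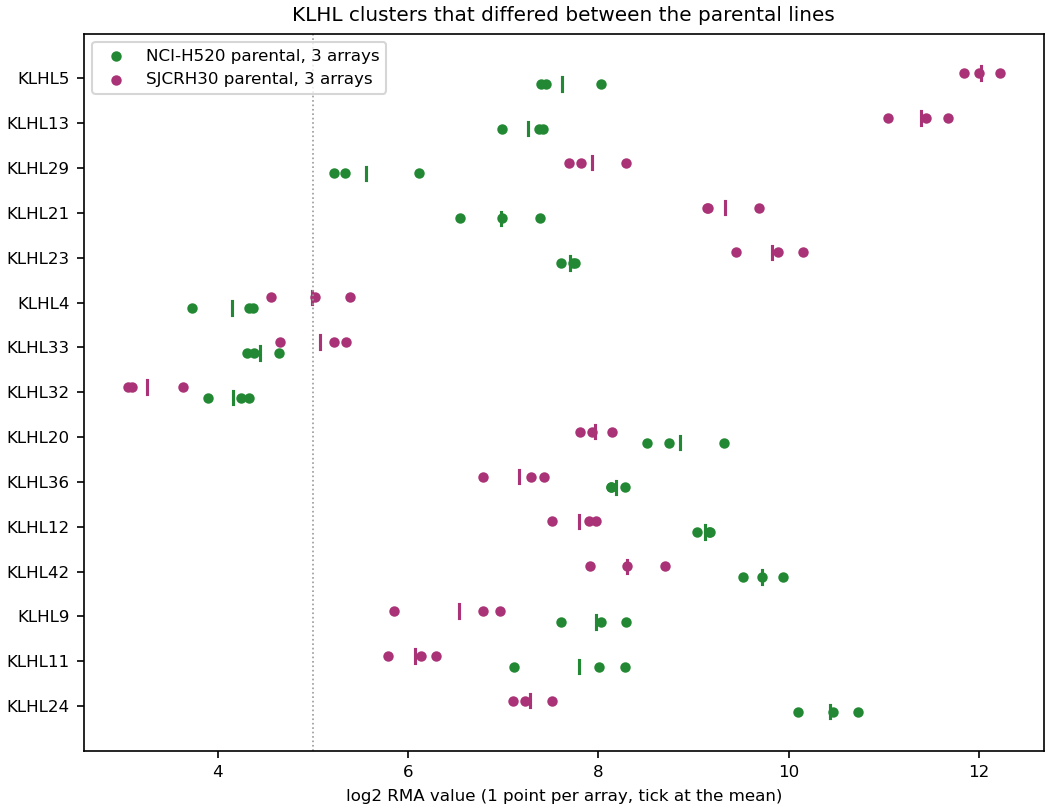
Log2 RMA values of the 15 KLHL clusters that differed between parental NCI-H520 (green) and parental SJCRH30 (purple), 1 point per array with a tick at the mean; the dotted line marks low signal. KLHL5 and KLHL13 are higher in SJCRH30 by 4.40 and 4.13, and KLHL24 has a difference of -3.15.

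Relative position within an array, which can be followed across the separately normalized sets, placed KLHL13 at percentiles 56.7 to 60.7 of all clusters in parental NCI-H520, 89.7 to 92.8 in parental SJCRH30 and 87.2 to 89.6 in parental Rh41. On the resistant arrays it stood at 37.4 to 47.8, 80.9 to 82.3 and 76.8 to 80.4. KLHL5 reached percentiles 93.4 to 94.7 in parental SJCRH30 but 65.1 to 69.3 in parental Rh41. Low signal held in all 6 groups for 9 members (25.7%, against 20.9% of all clusters), namely KLHL1, KLHL3, KLHL6, KLHL10, KLHL30, KLHL31, KLHL32, KLHL34 and KLHL38, and in no group for 21. KLHL1 is known from neurons, KLHL6 from B cells, KLHL10 from mouse sperm development and KLHL31 from muscle.

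Neighbouring genes were compared because the members lie on 20 chromosomes. WDR44, the next measured gene after KLHL13, fell by 0.75 ± 0.22 in NCI-H520 (adjusted p = 0.033) and fell by 1.47 ± 0.22 in SJCRH30 (adjusted p = 0.00053), but rose by 0.88 ± 0.14 in Rh41 (adjusted p = 0.0014). CT83, on the other side, was not called in any line. Among the 6 nearest measured genes on each side, a stretch chosen after its values were seen, 2 of 12 fell and 2 rose in NCI-H520, 4 fell and 1 rose in SJCRH30, and 2 rose in Rh41. The median change over the 12 genes was 0.03, -0.02 and -0.06 respectively, and in each line most of the stretch was not called. Genes of low signal count in these figures, and a fall can hardly show in them. In SJCRH30 RBMXL3, LUZP4, SLC6A14, CT83, ZCCHC12 and KIAA1210 were of low signal in both groups. Among the other genes there, PLS3 fell by 1.75, WDR44 by 1.47, IL13RA1 by 0.87 and LONRF3 by 1.89. AGTR2 rose by 1.31, and DOCK11 was not called. In NCI-H520 RBMXL3, LUZP4, AGTR2, CT83, ZCCHC12 and KIAA1210 were of low signal in both groups. Among the other genes in NCI-H520, SLC6A14 fell by 2.04 and WDR44 by 0.75. PLS3 rose by 0.99 and IL13RA1 by 4.49, and DOCK11 and LONRF3 were not called. In Rh41 all of the stretch but PLS3, WDR44 and IL13RA1 was of low signal in both groups. There WDR44 rose by 0.88 and IL13RA1 by 1.09, and PLS3 was not called. DNA copy number was not analysed here, and its part was not tested.

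**Figure D5:**
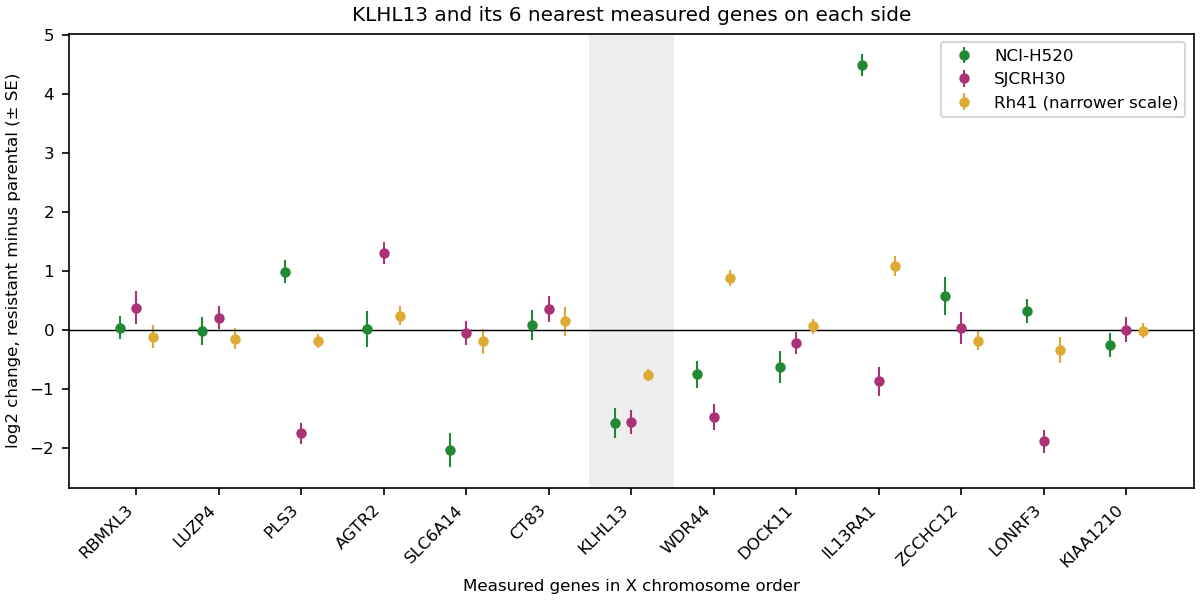
Log2 change, resistant minus parental, with bars of 1 SE, for KLHL13 (grey band) and its 6 nearest measured genes on each side in X chromosome order (green NCI-H520, purple SJCRH30, yellow Rh41 on its narrower scale). KLHL13 is below 0 in all 3 lines, while WDR44 beside it is below 0 in NCI-H520 and SJCRH30 and above 0 in Rh41.

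At least 1 adjoining measured gene was called in the same direction for 3 of 7 called members in NCI-H520 and 5 of 7 in SJCRH30, against 35.1% and 40.4% of all called clusters. Those pairs were KLHL13 with WDR44 in both lines, KLHL7 with NUP42 and KLHL36 with COTL1 in NCI-H520, and KLHL5 with TMEM156, KLHL8 with AFF1, KLHL28 with TOGARAM1 and KLHL42 with CCDC91 in SJCRH30. In Rh41 no neighbour of KLHL13 was called with it, against 24.1%.

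Neither core subunit of the ligase was called. In NCI-H520, SJCRH30 and Rh41, in that order, CUL3 changed by 0.33 ± 0.23, -0.09 ± 0.18 and -0.34 ± 0.09, and RBX1 by 0.65 ± 0.27, -0.53 ± 0.24 and 0.02 ± 0.10. CUL3 passed on the adjusted p in Rh41 (0.020) and was under 1.5-fold. Of 11 measured genes of the CUL3 core and of neddylation, which switches cullins on, 1 rose (UBA3) and 1 fell (DCUN1D2) in NCI-H520, 2 rose in SJCRH30 (NAE1 and DCUN1D4) and 1 fell in Rh41 (DCUN1D1). Of 13 genes of the COP9 signalosome and of CAND exchange, which switch cullins off and swap adaptors, 1 was called in each line. CAND1 rose by 0.64 ± 0.18 in NCI-H520 (adjusted p = 0.024) and fell by 0.73 ± 0.10 in Rh41 (adjusted p = 0.00049). COPS3, a subunit of the signalosome, fell by 0.61 ± 0.19 in SJCRH30 (adjusted p = 0.042).

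Among 13 measured kelch-BTB relatives with other symbols, none was called in NCI-H520 or Rh41, and 2 fell in SJCRH30. ENC1, an actin-binding neuronal protein, fell by 2.86 ± 0.19 (adjusted p = 8.3e-07), and IVNS1ABP fell by 1.13 ± 0.22 (adjusted p = 0.0034). KEAP1, the sensor that holds the antioxidant factor NRF2 in check, changed by -0.18 ± 0.18, -0.04 ± 0.22 and -0.01 ± 0.10 in NCI-H520, SJCRH30 and Rh41. Of 24 other BTB adaptors of CUL3, 4 rose and 3 fell in NCI-H520, 3 rose and 4 fell in SJCRH30 and 1 rose in Rh41. RHOBTB3 rose by 2.79 ± 0.19 in NCI-H520 and fell by 0.81 ± 0.22 in SJCRH30, and BTBD2 fell by 0.87 ± 0.18 and rose by 0.95 ± 0.19 in the same order.

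Of 24 measured substrates and partners of KLHL proteins, 4 rose and 2 fell in NCI-H520, 2 rose and 2 fell in SJCRH30 and 1 rose and 1 fell in Rh41. EIF4EBP1, the translation repressor that KLHL25 targets, fell by 1.08 ± 0.19 in NCI-H520, rose by 1.06 ± 0.21 in SJCRH30 and fell by 0.87 ± 0.15 in Rh41. KLHL25 itself was called in none. Among the 7 other cullins, CUL4B, an X-linked cullin of another ligase family, fell by 0.94 ± 0.19 in NCI-H520, fell by 1.35 ± 0.22 in SJCRH30 and rose by 0.66 ± 0.12 in Rh41. Its directions were thus those of WDR44 and, in Rh41, opposite to that of KLHL13.

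Of the muscle genes set aside by the rule, KLHL41, an adaptor of the sarcomere, rose by 1.68 ± 0.32 in SJCRH30 (adjusted p = 0.0025), and in Rh41 its change of 0.39 ± 0.10 was under 1.5-fold. KLHL40 was not called in any line. As context for the lines, 16 of 30 measured skeletal muscle genes rose and 1 fell in Rh41. In SJCRH30 6 of them rose and 6 fell, and in NCI-H520 3 rose and 0 fell. Of 27 interferon-stimulated genes, 19 rose and 0 fell in Rh41, 5 rose and 3 fell in SJCRH30, and 4 rose and 3 fell in NCI-H520. Rhabdomyosarcoma markers were at or above low signal for 8 or 9 of 10 genes in the SJCRH30 and Rh41 groups and for 5 in NCI-H520. Epithelial markers were at or above low signal for all 7 genes in NCI-H520, for 5 in parental and 3 in resistant SJCRH30 and for 4 in both Rh41 groups, and 6 of the 7 rose in resistant NCI-H520, with a median of 1.57. Squamous markers were so for 2 of 7 measured genes in both NCI-H520 groups, 2 in parental and 1 in resistant SJCRH30 and 4 in both Rh41 groups. Rh41 is on another scale, so its marker counts at this level cannot be set beside the others. Low signal held for 30.9% of all clusters in parental Rh41 and 35.9% in parental NCI-H520. The mean over the 7 squamous genes was 5.84 to 6.04 on the parental and 6.15 to 6.22 on the resistant NCI-H520 arrays. In SJCRH30 it was 4.54 to 4.80 and 4.51 to 4.84. Within each group the lowest correlation between arrays was 0.983.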

How the data were processed

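Total RNA of 20 cultures in 6 groups was labelled with biotin and hybridized to Clariom S arrays, 1 array per labelled biological replicate. The deposited values are log2 RMA values that the authors made from array intensities with quantile normalization, with a software version not given in the sources used here. The 8 Rh41 arrays had an SD of 1.99 and the other 12 of 2.99, so they had been normalized apart, and no test crossed these sets. The highest log2 value was 13.1 on the Rh41 arrays and 19.4 on the others. Fold changes therefore hold on the deposited scale of each set only, and the 1.5-fold threshold may not mean the same in both. Clusters were named through the platform annotation, and the 3739 with no symbol or several were left out.

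Differences were tested with lmFit and eBayes of limma 3.58.1 (R 4.3.3, two-sided), separately for each line, with Benjamini-Hochberg adjustment over 17709 clusters. A call needed an adjusted p under 0.05 and more than 1.5-fold, and "rose" and "fell" are used of calls alone. Errors are moderated standard errors. Group mean log2 values under 5 were taken as low signal, and these clusters were kept. The number of arrays limits the precision, and p-values measure the spread between these cultures. The fits were tested on simulated data.

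Members called in at least 1 line are described by array and others by range or count. Genes of the pathway lists are named where called in at least 2 lines, with CUL3, RBX1, KEAP1, KLHL40 and KLHL41; all other names, such as AURKB, DAPK1, WNK1, ENC1 and the neighbouring genes, were chosen after their values were seen. The members and lists were chosen with earlier results of these data known. Alternatives were a replicate block, limma-trend, array weights, joint quantile normalization of all 20 arrays, a low-signal filter, all clusters, other fold thresholds, 1 fit of all 6 groups and leaving out each array. Sequences are from RefSeq, build GRCh38.p14; the sources used here do not name the build of the array annotation. Figures were drawn with matplotlib 3.10.9 in Python 3.11.15.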

Additional observations from a re-analysis of the deposited data

Results flagged for a closer look

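The changes of 4 members differed between NCI-H520 and SJCRH30 in the direct test of the difference (NCI-H520 minus SJCRH30, limma). The differences were 2.26 for KLHL5, 1.52 for KLHL42, 1.13 for KLHL36 and 0.72 for KLHL2. All resistant arrays moved one way in Rh41 and the other way in another line for KLHL5 and KLHL8. The changes were -0.25 in Rh41 and 0.76 in NCI-H520 for KLHL5, and -0.53 in Rh41 and 0.94 in SJCRH30 for KLHL8. These differences were not tested, and neither Rh41 change was called (limma, adjusted p = 0.13 for KLHL5, under 1.5-fold for KLHL8). Separation of resistant from parental arrays was common. It held for 34.5% (NCI-H520), 34.1% (SJCRH30) and 26.2% (Rh41) of everything measured. Among the 35 members it held for 25.7%, 34.3% and 25.7%.

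Among the 5 resistant Rh41 arrays, which were screened for all 35 members, 1 array stood apart from the other 4 for 2 members. Replicate 3 had a KLHL4 value of 1.98 against 2.41 to 2.54, and a KLHL26 value of 5.98 against 6.19 to 6.26. Chance flags about 1 in 20 groups, which over 35 members is close to the number found.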

How the results depend on the processing

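No call of a member reversed under any alternative run. The calls of KLHL13, KLHL2 and KLHL36 in NCI-H520, of KLHL13, KLHL5 and KLHL42 in SJCRH30, and the differences of KLHL5 and KLHL42 between these lines held under all of them; KLHL13 in Rh41 and KLHL20 in SJCRH30 were lost only with a 2-fold threshold. Leaving out each array in turn gave 2 to 3 rises and 1 to 3 falls in NCI-H520 (main 4 and 3), 2 to 4 rises in SJCRH30 (main 4), 0 to 2 rises in Rh41 (main 0) and 2 to 5 differences between lines (main 4). The share of all clusters called was then 16.1% to 17.8% in NCI-H520 and 13.6% to 15.9% in SJCRH30. It was 8.41% to 10.6% in Rh41 and 20.7% to 21.6% for the difference. The Rh41 rises were 2 (KLHL9 and KLHL28) without parental replicate 3. With all 20 arrays normalized together, NCI-H520 had 1 fall, SJCRH30 2 rises, and Rh41 2 rises and 2 falls. The resistance change then differed between lines for 2 members. Of all clusters, this setting called 16.6% for Rh41, 16.5% for NCI-H520, 14.2% for SJCRH30 and 20.8% for the difference. In the main fits the Rh41 share was lower, at 8.78%, and the other shares were higher. The cause of these shifts was not tested. With a 2-fold threshold, NCI-H520 had 2 rises and 1 fall, SJCRH30 0 rises and Rh41 0 falls, since smaller changes no longer count. That threshold left 2.61% of all clusters called for Rh41, 7.95% for SJCRH30 and 10.8% for NCI-H520. Rh41 had 1 rise (KLHL9) with limma-trend, with array weights and with the low-signal filter, and 1 rise (KLHL20) and 2 falls (KLHL13 and KLHL8) with no fold threshold. In that order, these settings called 9.0%, 8.74%, 11.3% and 20.5% of the clusters tested in Rh41.

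Replicate numbers were not used to pair the samples in the main fits. Same-number correlations ran from 0.04 to 0.11 for NCI-H520, from -0.01 to 0.12 for SJCRH30 and from -0.18 to 0.28 for Rh41. In NCI-H520 every parental array correlated best with the resistant array of its own number, so whether those cultures were paired is not settled. With a replicate block, NCI-H520 had 4 rises and 2 falls (KLHL9 was lost), against 20.2% of all clusters called. SJCRH30 then had 4 rises and 3 falls, against 18.3%, and Rh41 0 rises and 1 fall, against 9.33%. Parental SJCRH30 had 7 members higher and 8 lower than parental NCI-H520, against 44.4%. The resistance change differed between these lines for 4 members, with KLHL8 in place of KLHL2, against 23.1%. Signal near background limits the 9 members that were low throughout.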
